A study of Mus musculus with 10 samples.

Results

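The 10 genes described here encode PARPs and other enzymes that consume NAD, together with the enzymes that take ADP-ribose off again. They are Parp1, Parp2, Parp3, Parp4, Parp6, Tnks, Tnks2, Parg, Macrod1 and Cd38. They were taken as a named gene family, with no threshold on their values, and each was found through its Ensembl identifier among the 41388 genes listed for every library. All 10 passed the filter on low values, and they stand among the 13444 genes tested.

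PARPs split NAD and transfer its ADP-ribose to proteins or DNA, either as a single unit or as a branched chain, and release nicotinamide. PARG cuts the chains, MACROD1 removes the last unit from the protein, and CD38 is a membrane enzyme that hydrolyses NAD to ADP-ribose. Nicotinamide is returned to NAD by the salvage route, whose rate-limiting enzyme is NAMPT, and the liver is among the organs where PARP1 and CD38 are known as large consumers of NAD.

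Liver RNA was sequenced from 10 adult mice of strain C57B/6J aged about 12 weeks, with 1 library per mouse. WT mice carried floxed Nampt alleles without Cre, and NAMPT LKO littermates carried the same floxed alleles with Albumin-cre, which deletes in hepatocytes and leaves Nampt in the other cells of the liver. WT Fasting (n = 3) and NAMPT LKO Fasting (n = 5) mice had been without food for 24 h by the sample labels, and WT Refed mice (n = 2) for 22 h followed by 2 h of food. No refed or fed NAMPT LKO mice were analysed here, so a response of the NAMPT LKO liver to food could not be measured. In bulk liver, fewer cells of a type and less RNA per cell cannot be told apart.

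Library totals ran from 30603080 to 43434139 counted reads, and the 10 genes had between 122 reads (Parp2 in WT Fasting mouse 2) and 2415 reads (Tnks2 in WT Fasting mouse 3). The 8 hepatocyte markers summed to 78681 to 130003 CPM (reads scaled to the library total) in every library, so hepatocyte RNA was present in all of them. Nampt itself was at 11.8 to 15.3 CPM in the 5 NAMPT LKO libraries, against 63.0 to 141 CPM in WT Fasting and 67.8 and 78.0 CPM in WT Refed livers, so each library matched its genotype label. All CPM values here also carry TMM factors, which even out library composition, and RPKM are the deposited values, which are further divided by exonic length. A gene was called where the Benjamini-Hochberg adjusted p of edgeR's quasi-likelihood test was at or under 0.05. Of all genes tested, 7.04% were called in WT Fasting vs WT Refed, 0.00744% (1 gene, Nampt) in NAMPT LKO Fasting vs WT Fasting, and 11.2% in NAMPT LKO Fasting vs WT Refed livers. The first and the third of these comparisons share the WT Refed libraries, and the first and the second share the WT Fasting libraries.

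Parp1 and Parp4 were the 2 genes of the 10 that were called, and the stretch of 250 bases before the RefSeq start of each is shown so that the letters near their starts can be compared. Both are on the plus strand of GRCm38.p6. The Parp1 stretch is chr1:180568641-180568890 and the Parp4 stretch is chr14:56575369-56575618. The counted Parp4 gene begins right after its stretch, at 56575619. The counted Parp1 gene begins further on, at 180568955, so the bases just before it are not shown. Capitals mark matches, on either strand, to the E-box CACGTG, the GC box GGGCGG and the CCAAT box.
Parp1: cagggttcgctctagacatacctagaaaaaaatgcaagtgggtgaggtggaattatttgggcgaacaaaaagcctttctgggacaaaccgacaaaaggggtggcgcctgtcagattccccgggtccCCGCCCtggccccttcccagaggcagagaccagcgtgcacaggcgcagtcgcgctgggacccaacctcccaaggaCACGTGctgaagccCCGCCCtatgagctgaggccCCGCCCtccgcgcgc
Parp4: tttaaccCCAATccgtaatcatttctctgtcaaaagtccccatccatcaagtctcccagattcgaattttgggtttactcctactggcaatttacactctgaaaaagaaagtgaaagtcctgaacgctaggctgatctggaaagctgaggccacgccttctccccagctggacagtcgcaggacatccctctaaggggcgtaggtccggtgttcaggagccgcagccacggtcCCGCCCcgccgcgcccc
The Parp1 stretch had an E-box and GC boxes, and the Parp4 stretch had a CCAAT box and a GC box. Over windows of 250 bases before to 50 bases after the start, an E-box stood in 3 of the 9 members in the promoter table (Parp1, Parp2 and Macrod1) and in 7.15% of 32851 promoters. A GC box stood in 5 of the 9 members and in 35.7% of promoters, and a CCAAT box in 2 of the 9 (Parp3 and Parp4) and in 37.4%. CCGGAAGT, the core of ETS sites, was found in Parg alone and in 3.89% of promoters. The NRF1 motif (0.971% of promoters) and TGACGTCA, the CRE (1.79%), were found in none of the 9 windows. These are matches of letters only, and no binding was measured.

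Per exonic length, Macrod1 was by far the most abundant of the 10 transcripts in every group. Its RPKM was 32.6 ± 0.736 (SD, n = 2) in WT Refed, 39.2 ± 1.22 (n = 3) in WT Fasting and 32.4 ± 7.54 (n = 5) in NAMPT LKO Fasting livers, which was 43.7%, 48.8% and 46.0% of the summed RPKM of the 10 genes. MACROD1 is a hydrolase found mainly in mitochondria. Parp1, the main sensor of DNA strand breaks in the family, came next in WT Refed (11.2 ± 0.879 RPKM) and NAMPT LKO Fasting livers (7.92 ± 0.683). In WT Fasting livers Parp3 (8.89 ± 3.28) and Parp1 (7.67 ± 0.417) had overlapping ranges. At the other end, Parp4, which encodes the PARP of the vault particle, had the lowest mean of the 10 in each group, at 1.62 ± 0.0686, 2.48 ± 0.172 and 2.34 ± 0.288 RPKM in the order WT Refed, WT Fasting, NAMPT LKO Fasting. Its range lay below that of every other gene in WT Refed livers, but in WT Fasting and in NAMPT LKO Fasting livers it overlapped with the ranges of Parp2, Tnks and Parg, and in the latter also with that of Parp6. Parp3 was at 6.46 ± 0.251 RPKM in WT Refed and 5.84 ± 0.738 RPKM in NAMPT LKO Fasting livers. The other 6 genes had group means between 2.63 and 5.09 RPKM, and most neighbours in their order had overlapping ranges, among them Tnks2 and Cd38, Cd38 and Parg, and Parg and Parp2 in WT Refed livers.

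**Figure D1:**
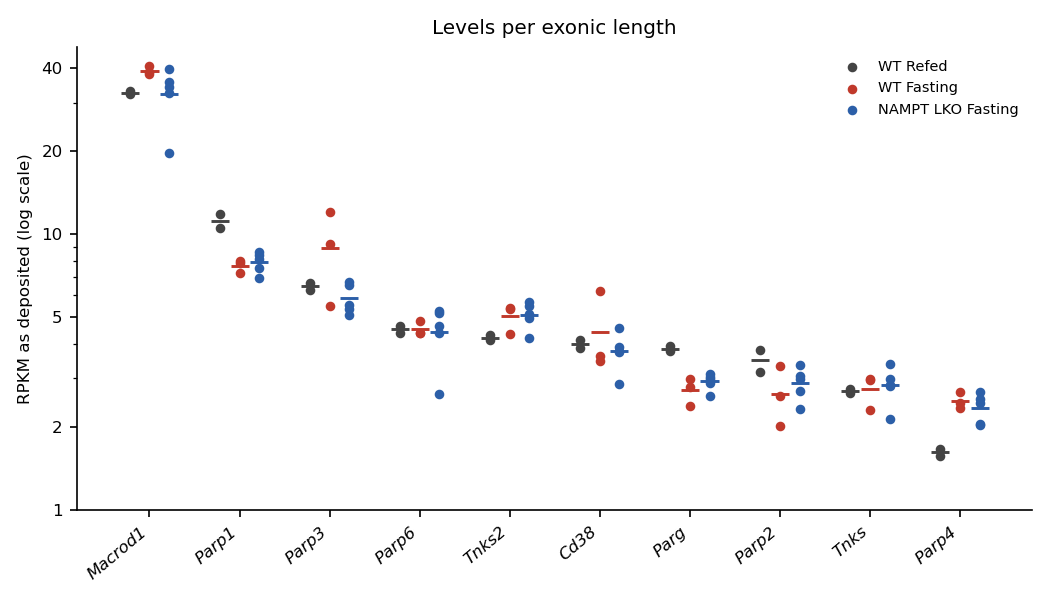
Deposited RPKM (log scale) of the 10 genes, 1 point per library and a bar at each group mean, for WT Refed (n = 2), WT Fasting (n = 3) and NAMPT LKO Fasting (n = 5) mice. Macrod1 lies above all others in every library, between 19.8 and 40.6 RPKM, and Parp4 has the lowest mean in every group.

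The comparison of WT Fasting with WT Refed livers sets 24 h without food against 22 h without food and then 2 h of refeeding. No mice that had not been fasted were analysed here, so it does not measure fasting against the fed state. Parp1 was lower and Parp4 higher in WT Fasting livers, 2 of 10 genes, against 7.04% of all genes tested. With no adjustment of p, 4 of the 10 passed 0.05 (Parp1, Parp4, Parg and Tnks2), against 22.3% of all genes tested. The median log2 fold change of the 10 was 0.14, beside 0.04 over all genes tested. Groups did not overlap for 5 of the 10 (Parp1 and Parg lower, Parp4, Tnks2 and Macrod1 higher in WT Fasting), and this held for 49.7% of all genes tested, so the count of separated genes was that of the background. An exact permutation test of 3 against 2 libraries cannot go below p = 0.10 (two-sided), the value that Parp1, Parp4, Parg and Macrod1 had.

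Parp1 (ENSMUSG00000026496, chr1:180568955-180601253) was at 39.3 and 44.1 CPM in WT Refed livers, at 30.0, 29.1 and 30.2 CPM in WT Fasting livers, and at 31.1, 33.3, 31.8, 29.3 and 31.8 CPM in NAMPT LKO Fasting livers. Both refed livers lay above all 8 fasted livers, and the fasted livers of both genotypes overlapped. The WT Fasting livers were at 0.714-fold of WT Refed, a log2 fold change of -0.49 ± 0.10 (SE; 95% interval -0.71 to -0.26; adjusted p = 0.0192, edgeR). The NAMPT LKO Fasting livers were 0.754-fold of the WT Refed livers (log2 -0.41 ± 0.09, adjusted p = 0.0206, edgeR), which rests on the same pair of refed livers.

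Parp4 (ENSMUSG00000054509, chr14:56575619-56659794) went the other way. It was at 9.93 and 10.6 CPM in WT Refed livers, at 17.4, 16.7 and 15.1 CPM in WT Fasting livers, and at 16.3, 13.5, 15.7, 17.6 and 15.8 CPM in NAMPT LKO Fasting livers. Both refed livers lay below all 8 fasted livers. The WT Fasting livers were at 1.60-fold of WT Refed, a log2 fold change of 0.68 ± 0.14 (SE; 95% interval 0.36 to 1.00; adjusted p = 0.0186, edgeR), and NAMPT LKO Fasting livers were 1.54-fold of WT Refed (log2 0.62 ± 0.13, adjusted p = 0.0147, edgeR). Parp4 shares 335 of its 6534 exonic bases (5.13%) with the antisense gene Gm16573, which had 166 to 425 reads, and the counting is not stated to use strand, so reads of the pair may be mixed on that stretch.

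Within each library, where depth and scaling cancel, the ratio of Parp4 to Parp1 in RPKM was 0.141 and 0.149 in the WT Refed livers, 0.294 to 0.342 in the WT Fasting livers and 0.239 to 0.354 in the NAMPT LKO Fasting livers. The refed livers had the lowest ratios of the 10. This order follows from the separation of each gene given above, so it is no further support. The ratio of Parp1 to Parg, which were both highest in the refed livers, overlapped among the groups. It was 2.81 and 3.00, 2.62 to 3.03 and 2.40 to 2.91 in the same order.

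The calls of Parp1 and Parp4 rested on few mice. This is not particular to them, as the number of all genes called also moved widely with the library left out (closing section). Leaving out WT Refed mouse 1 or 2 or WT Fasting mouse 1 or 2 ended both calls in WT Fasting vs WT Refed, with adjusted p between 0.0558 and 0.229 for Parp1 and between 0.0599 and 0.176 for Parp4 (edgeR), while the log2 fold changes stayed between -0.58 and -0.41 and between 0.62 and 0.73 over all 10 omissions. Against NAMPT LKO Fasting livers, leaving out either WT Refed mouse ended both calls (adjusted p 0.0771 and 0.265 for Parp1, 0.163 and 0.134 for Parp4, edgeR), and without the filter on low values Parp1 missed the threshold in both comparisons (adjusted p = 0.0671 and 0.0668, edgeR).

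**Figure D2:**
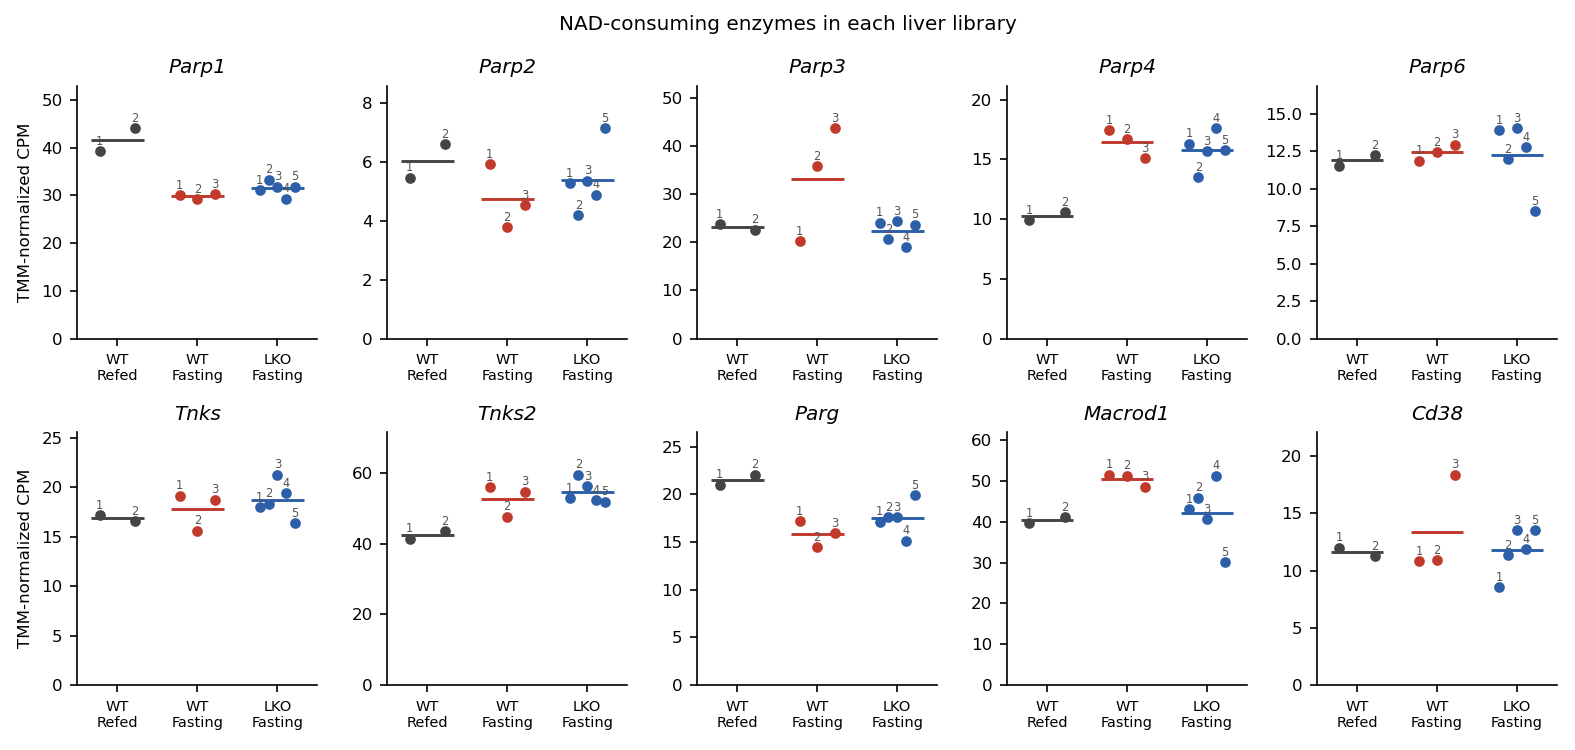
TMM-normalized CPM (linear axes from 0) of the 10 genes in each library, numbered by mouse, with bars at the group means. The 2 WT Refed livers lie above all fasted livers for Parp1 and below them for Parp4, WT Fasting mouse 3 is highest for Parp3 and Cd38, and NAMPT LKO Fasting mouse 5 is lowest for Parp6 and Macrod1.

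The other DNA-damage PARPs did not pass the test. Parp2, a close relative of Parp1 that also builds chains at strand breaks, was at 5.47 and 6.62 CPM in WT Refed, 5.92, 3.78 and 4.53 in WT Fasting and 5.28, 4.20, 5.37, 4.89 and 7.15 in NAMPT LKO Fasting livers. The 3 groups overlapped, and the interval of the log2 difference between WT Fasting and WT Refed ran from -0.90 to 0.20. Parp3, which attaches single ADP-ribose units at double-strand breaks, was at 23.8 and 22.6 CPM in WT Refed, 20.2, 35.8 and 43.7 in WT Fasting and 24.1, 20.6, 24.3, 19.0 and 23.6 in NAMPT LKO Fasting livers. The WT Fasting mice spanned a range wider than that of the other 7 mice together, with mice 2 and 3 above all other livers and mouse 1 among them. The log2 difference from WT Refed was 0.52 ± 0.26 (SE; adjusted p = 0.263, edgeR). It was 0.26 without WT Fasting mouse 3, and 0.77 without WT Fasting mouse 1, where it was called (adjusted p = 0.0349, edgeR). That call is not read as support, because the number of all genes called also moved widely with the library left out (closing section).

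The tankyrases build chains on partners such as axin and proteins of telomeres. Tnks2 was at 41.5 and 43.6 CPM in WT Refed, 56.0, 47.7 and 54.7 in WT Fasting and 52.9, 59.6, 56.2, 52.3 and 51.9 in NAMPT LKO Fasting livers. All 8 fasted livers lay above both refed livers, but the differences missed the threshold, with log2 0.31 ± 0.12 (adjusted p = 0.139, edgeR) for WT Fasting and 0.36 ± 0.11 (adjusted p = 0.0553, edgeR) for NAMPT LKO Fasting vs WT Refed. The first was called in 1 of 9 other alternatives (voomWithQualityWeights, adjusted p = 0.0427). The second was called with voomWithQualityWeights (adjusted p = 0.00321), with DESeq2 (adjusted p = 0.0180) and without NAMPT LKO Fasting mouse 5 (adjusted p = 0.0178, edgeR). In both comparisons voomWithQualityWeights called many more of all genes tested than edgeR did (counts in the closing section). Its calls are therefore not read as added support. For DESeq2 the number of all genes called in the second comparison is not given here. That number also moved widely with the library left out (range in the closing section). These calls of Tnks2 are likewise not read as added support. Tnks was at 17.2 and 16.6 CPM in WT Refed, 19.2, 15.6 and 18.8 in WT Fasting and 18.0, 18.4, 21.3, 19.4 and 16.4 in NAMPT LKO Fasting livers, and its groups overlapped. The ratio of Tnks2 to Tnks in RPKM was 1.50 and 1.63 in WT Refed, 1.81 to 1.89 in WT Fasting and 1.63 to 2.01 in NAMPT LKO Fasting livers.

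Of the enzymes that remove ADP-ribose, Parg was at 21.0 and 22.1 CPM in WT Refed, 17.2, 14.4 and 15.9 in WT Fasting and 17.1, 17.6, 17.6, 15.1 and 19.9 in NAMPT LKO Fasting livers. As for Parp1, both refed livers lay above all 8 fasted livers. The log2 differences were -0.44 ± 0.14 for WT Fasting (adjusted p = 0.0839, edgeR) and -0.30 ± 0.13 for NAMPT LKO Fasting (adjusted p = 0.160, edgeR), both short of the threshold. Without NAMPT LKO Fasting mouse 5 both were called (adjusted p = 0.0224 and 0.0370, edgeR). The number of all genes called also moved widely with the library left out (ranges in the closing section), so these calls are not read as added support. The difference in WT Fasting was also called in 4 of 9 other alternatives. These were voomWithQualityWeights, DESeq2, the groups compared alone and removal of the GC trend (adjusted p between 0.00515 and 0.0459). Each of them also called more of all genes tested than the main fit. The difference in NAMPT LKO Fasting was called in 1 of 9 (voomWithQualityWeights, adjusted p = 0.0116), which again called more of all genes tested.
Macrod1 was at 39.6 and 41.1 CPM in WT Refed, 51.5, 51.3 and 48.6 in WT Fasting and 43.1, 45.9, 40.6, 51.3 and 30.0 in NAMPT LKO Fasting livers. The 3 WT Fasting livers lay above both refed livers, whereas the NAMPT LKO Fasting livers spread over and beyond the values of both other groups. Its log2 difference between WT Fasting and WT Refed was 0.32 ± 0.18 (adjusted p = 0.332, edgeR). It was called by voomWithQualityWeights (adjusted p = 0.0285), which called many more of all genes tested than edgeR did.

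Parp6, which adds single ADP-ribose units, was at 11.5 and 12.2 CPM in WT Refed, 11.9, 12.5 and 12.9 in WT Fasting and 13.9, 12.0, 14.1, 12.8 and 8.51 in NAMPT LKO Fasting livers, with overlap of all groups. Its log2 difference between WT Fasting and WT Refed was 0.06, with a 95% interval of -0.37 to 0.49. Cd38, which is abundant on immune cells, was at 12.0 and 11.3 CPM in WT Refed, 10.9, 10.9 and 18.4 in WT Fasting and 8.56, 11.4, 13.6, 11.9 and 13.5 in NAMPT LKO Fasting livers. A single liver, WT Fasting mouse 3, stood above the rest, and the log2 difference of 0.20 from WT Refed (interval -0.36 to 0.76) became -0.11 without it.

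In NAMPT LKO Fasting vs WT Refed livers, which differ in both genotype and refeeding, Parp1 and Parp4 were again the 2 genes called, against 11.2% of all genes tested. With no adjustment 4 of the 10 passed 0.05 (26.1% of all genes tested), and for the same 4, Parp1 and Parg lower and Parp4 and Tnks2 higher, the groups did not overlap (33.5% of all genes tested). The median log2 fold change of the 10 was 0.03, as it was over all genes tested.

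The comparison of NAMPT LKO Fasting with WT Fasting livers asks whether loss of Nampt in hepatocytes alters the transcripts of NAD consumers in the fasted liver. None of the 10 genes was called, either with the quasi-likelihood test of edgeR or with any of the alternatives, which include voomWithQualityWeights, edgeR's exact test and DESeq2. With no adjustment of p, 1 of the 10 passed 0.05 (Parp3), and 6.03% of all genes tested did. For 0 of the 10 did the 5 NAMPT LKO and 3 WT Fasting livers separate, and 3.99% of all genes tested did separate. The median log2 fold change of the 10 was 0.01, and it was 0.00 over all genes tested.

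The intervals show how large a difference these 8 livers leave room for. For Parp1 the log2 fold change was 0.08 ± 0.08 (SE), with a 95% interval from -0.11 to 0.26, and for Parp4 it was -0.06 with an interval from -0.30 to 0.19. Tnks2 (0.05, interval -0.16 to 0.25), Tnks (0.07, -0.19 to 0.32), Parg (0.14, -0.11 to 0.39) and Parp6 (-0.02, -0.36 to 0.32) also had intervals within 0.39 on either side of 0. Wider ones belonged to Parp2 (0.18, -0.27 to 0.63), Cd38 (-0.19, -0.63 to 0.26) and Macrod1 (-0.26, -0.58 to 0.06). For comparison, Nampt had a log2 fold change of -2.81 ± 0.22 (adjusted p = 0.00102, edgeR).

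Parp3 had the lowest p of the 10, with a log2 fold change of -0.57 ± 0.20 (interval -1.01 to -0.13; adjusted p = 0.798, edgeR), and the groups overlapped because WT Fasting mouse 1, at 20.2 CPM, lay among the NAMPT LKO livers. Without WT Fasting mouse 3 the difference was -0.32, and over all omissions of a single library it ran from -0.83 to -0.32. The NAMPT LKO livers did not differ in Parp3 from WT Refed livers by the test (log2 -0.06, interval -0.57 to 0.46).

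**Figure D3:**
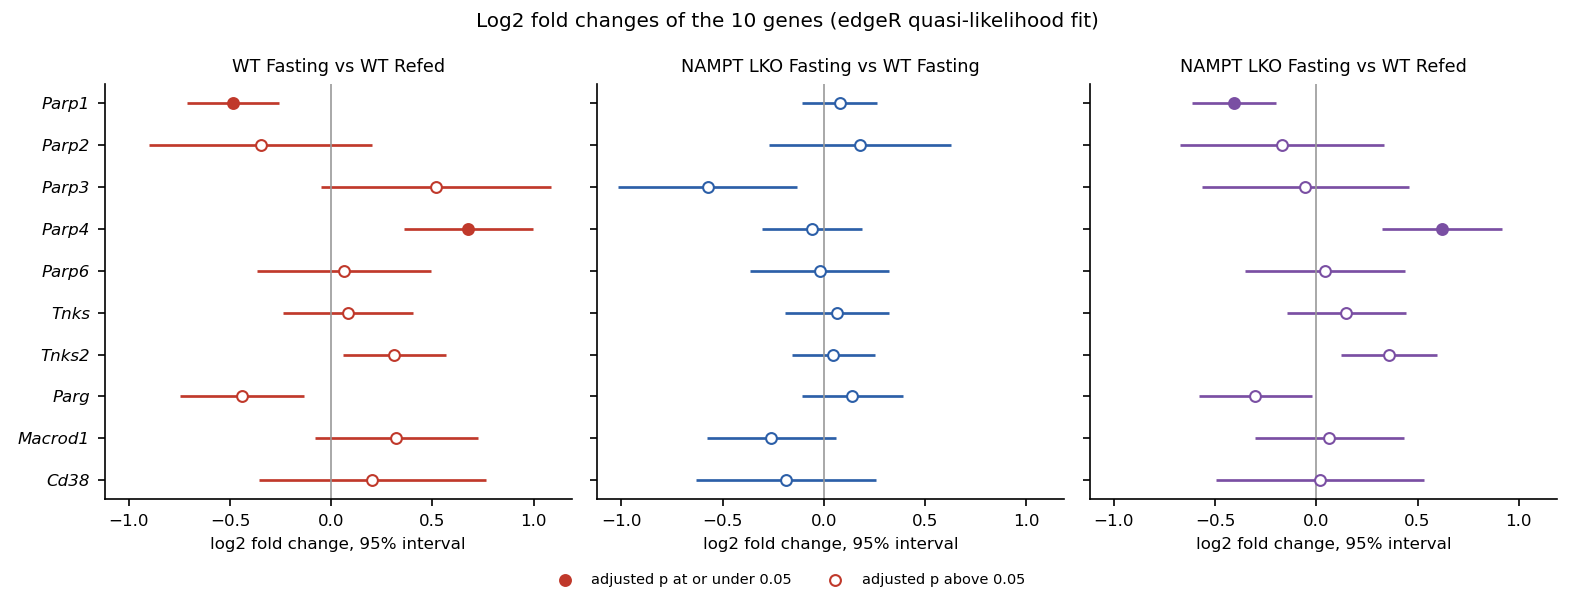
Log2 fold changes of the 10 genes in 3 comparisons, with 95% intervals from edgeR's quasi-likelihood fit; filled points have an adjusted p at or under 0.05. Parp1 and Parp4 are filled on the left and on the right, which share the WT Refed livers, and no point is filled in the middle panel, where the intervals of 9 genes include 0.

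WT Fasting mouse 3 stood apart from the other livers in a set of interferon response genes, and the PARP family holds several members that interferon is known to induce. The 16 interferon genes summed to 2137 CPM in that liver, against 152 and 162 CPM in the other WT Fasting livers, 199 and 214 CPM in WT Refed and 135 to 182 CPM in NAMPT LKO Fasting livers, and all 16 were highest there. Tgtp1 (464 CPM against a median of 1.23 in the other 9 livers), Igtp (903 against 21.8), Gbp2 (93.7 against 4.13) and Gbp3 (82.4 against 3.85) were past 10 times that median. Of the 8 Kupffer cell markers 7 were highest there too, and their sum was 549 CPM, against 279 and 282 CPM in the other WT Fasting livers, 216 and 269 CPM in WT Refed and 195 to 420 CPM in NAMPT LKO Fasting livers. Among all genes tested, 13.3% were highest in this liver.

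Of the 10 genes, Parp3 and Cd38 were highest in that liver, and among 9 further PARP genes 7 were. Parp14, an interferon-induced mono-ADP-ribosyltransferase, was at 130 CPM there and at 23.1 to 40.9 CPM in the other 9 livers. Parp9 was at 101 CPM against 35.7 to 55.5, Parp12 at 83.4 against 23.6 to 32.0, and Zc3hav1, which encodes the zinc-finger antiviral protein, at 98.5 against 38.2 to 55.4. Dtx3l, the ubiquitin ligase that pairs with PARP9, was at 115 CPM against 47.8 to 77.7. The part of this liver's state in the Parp3 and Cd38 values was not tested.

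The 9 further PARP genes show what this single liver did to the comparisons. With all libraries 9 of 9 had a positive log2 fold change in WT Fasting vs WT Refed (median 0.50, range 0.22 to 1.18) and 8 of 9 a negative one in NAMPT LKO Fasting vs WT Fasting (median -0.54), and 0 of 9 were called in either (1 of 9 passed 0.05 with no adjustment in each, edgeR). Over all genes tested, 53.6% and 50.1% had a positive log2 fold change in these comparisons, 7.04% and 0.00744% were called, and 22.3% and 6.03% passed 0.05 unadjusted. The gene that passed 0.05 in WT Fasting vs WT Refed was Parp8, at only 0.55 and 0.63 CPM in the WT Refed livers. Parp8 passed the filter on low values only through fasted livers, where it was higher. Its positive value among the 9 is therefore a description, and no test is read from it. Without WT Fasting mouse 3 the medians of the 9 genes were -0.12 and 0.15, with the signs turned. Parp14 went from 1.18 to -0.09 in the first comparison and from -0.96 to 0.30 in the second. The calls of Parp1 and Parp4 were kept without this liver, at log2 -0.51 and 0.73 in WT Fasting vs WT Refed.

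**Figure D4:**
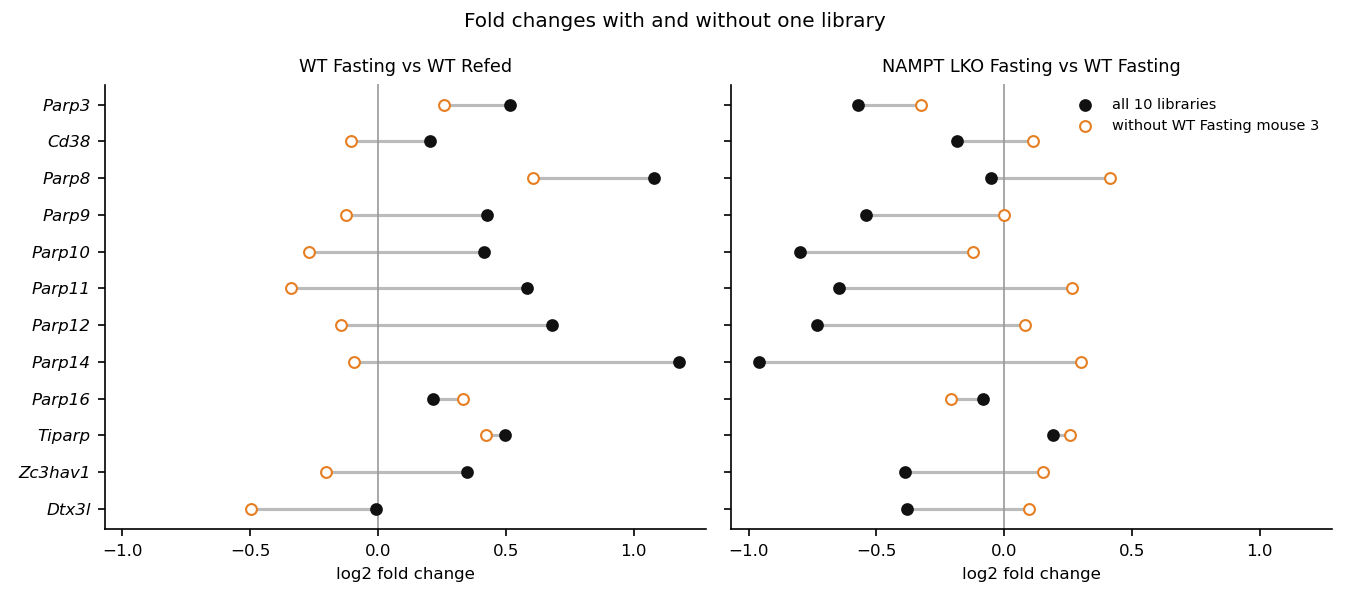
Log2 fold changes of Parp3, Cd38, 9 further PARP genes and Dtx3l with all 10 libraries (black) and without WT Fasting mouse 3 (open orange), for WT Fasting vs WT Refed (left) and NAMPT LKO Fasting vs WT Fasting (right). Without that liver the values of Parp14 move from 1.18 to -0.09 on the left and from -0.96 to 0.30 on the right.

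For several of the 10 genes NAMPT LKO Fasting mouse 5 lay at the edge of its group, but so did other NAMPT LKO livers. Mouse 4 was lowest for Parp1, Parp3 and Parg and highest for Parp4 and Macrod1. In mouse 5, Parp2 and Parg were above, and Parp6, Tnks, Tnks2 and Macrod1 below, the range of the other 4 NAMPT LKO livers. Reads from the mitochondrial genome were 21.1% of that library and 7.42% to 12.9% of the other 9. Macrod1 was at 30.0 CPM there against 40.6 to 51.3 CPM in the other 4. It is the member richest in G and C (62.8% over its annotated transcripts, where the 90th percentile of genes tested was 57.7%). The other genes below the range were at 43.6% (Tnks2), 45.3% (Tnks) and 47.3% (Parp6). Those above it were at 46.9% (Parp2) and 46.6% (Parg). Parp6 was at 8.51 CPM against 12.0 to 14.1. Without this liver the log2 difference between NAMPT LKO and WT Fasting was -0.16 for Macrod1 and 0.08 for Parp6, which had been -0.26 and -0.02. The part of the mitochondrial share in these values was not tested. The 6 cholangiocyte markers summed to 34.3 to 54.5 CPM in NAMPT LKO Fasting livers, against 15.3 to 22.7 CPM in WT Fasting and 20.2 and 22.8 CPM in WT Refed livers.

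**Figure D5:**
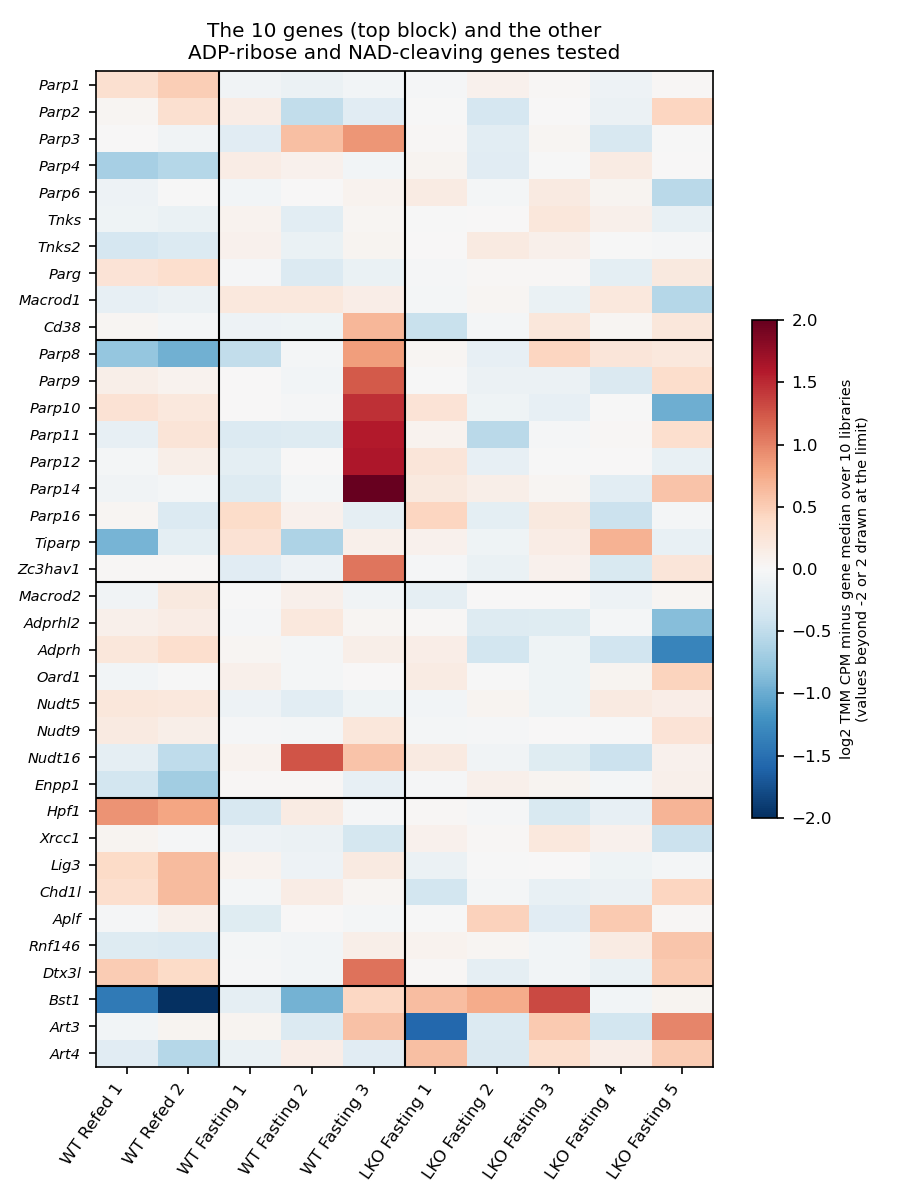
Log2 CPM of the 10 genes (top block) and of 27 further genes of ADP-ribose and NAD cleavage in each library, relative to the gene's median over 10 libraries; colors stop at -2 and 2. Columns are the libraries by group, and the dark red cells in the second block are the PARP genes of WT Fasting mouse 3.

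Around the 10 genes, 32 further genes of the pathway were examined, and 27 of them passed the filter. In WT Fasting vs WT Refed 0 of 27 were called with edgeR and 7 passed 0.05 with no adjustment of p. Over all genes tested the shares with edgeR were 7.04% and 22.3%. DESeq2 called 4 of the 27 and voomWithQualityWeights 6, but both also called more of all genes tested than edgeR did (counts in the closing section). In NAMPT LKO Fasting vs WT Fasting 0 of 27 were called with edgeR, 0 by DESeq2 and 0 by voomWithQualityWeights, and 2 passed 0.05 unadjusted with edgeR. Over all genes tested 0.00744% were called and 6.03% passed unadjusted with edgeR. In NAMPT LKO Fasting vs WT Refed 3 of 27 were called, beside 11.2% of all genes tested. Of these 3, Bst1 passed the filter only through a NAMPT LKO library, in the group with its highest mean. It is counted in the 3 and in the 7, but its values are a description and no test is read from them. Parp8, also among the 7, passed the filter only through fasted livers and is treated likewise.

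The 3 genes called in NAMPT LKO Fasting vs WT Refed were Lig3, Enpp1 and Bst1. Lig3, the ligase that seals single-strand breaks with XRCC1 after PARP1 has marked them, was at 23.5 and 28.0 CPM in WT Refed, 18.9, 16.8 and 20.5 in WT Fasting and 16.5 to 18.0 CPM in NAMPT LKO Fasting livers. Every fasted liver was below both refed livers, as for Parp1 and Parg. The share of all genes tested that separate all fasted from both refed livers is not given here. Each such separation in this report rests on the same 2 refed livers. Its log2 fold change was -0.57 ± 0.12 in NAMPT LKO Fasting vs WT Refed (adjusted p = 0.0126, edgeR) and -0.46 ± 0.13 in WT Fasting vs WT Refed (adjusted p = 0.0597, edgeR). Enpp1, a cell-surface phosphodiesterase that can cleave ADP-ribose compounds, was at 17.6 and 14.0 CPM in WT Refed, 22.9, 23.1 and 20.3 in WT Fasting and 22.1 to 24.2 CPM in NAMPT LKO Fasting livers. Every fasted liver was above both refed livers, with log2 0.56 ± 0.12 (adjusted p = 0.0168, edgeR) and 0.48 ± 0.13 (adjusted p = 0.0539, edgeR) in the same order of comparisons.
Bst1, the closest relative of Cd38, was scarce, with 6 and 10 reads in WT Refed, 10 to 35 reads in WT Fasting and 21 to 62 reads in NAMPT LKO Fasting livers, and it passed the filter only through NAMPT LKO Fasting mouse 3. Without WT Refed mouse 2, 0 of the 3 were called.

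In the list of PARP partners and readers (7 of 7 tested), 6 had a negative log2 fold change in WT Fasting vs WT Refed (median -0.20) and 0 were called. Of all 13444 genes tested, 6232 had a negative one and 7.04% were called. Without WT Fasting mouse 3 the median of this list was -0.44. Hpf1, the cofactor that directs PARP1 to serine residues, was at 5.67 and 5.21 CPM in WT Refed, 2.42, 3.38 and 2.97 in WT Fasting and 2.46 to 4.88 CPM in NAMPT LKO Fasting livers, a log2 difference of -0.90 ± 0.28 in WT Fasting (adjusted p = 0.0860, edgeR). Both refed livers lay above all 8 fasted livers. In the list of other ADP-ribose hydrolases (8 of 9 tested) the median was -0.06, and in that of other NAD-cleaving enzymes (3 of 7 tested) it was 0.32. Within the second comparison the lowest p in each list belonged to Parp10 (log2 -0.80), Nudt16 (-0.79), Dtx3l (-0.38) and Bst1 (0.74), none of them called. For Bst1 this is a description only, because of how it passed the filter. Nudt16, a hydrolase of nucleoside diphosphates, was at 10.7 CPM in WT Fasting mouse 2 and at 3.14 to 6.66 CPM in the other 9 livers.

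Over the 10 libraries, the gene whose log2 CPM followed Parp1 most closely, after each gene's mean was set to 0, was Ero1l, with a root mean square difference of 0.05, followed by Sdhaf2 (0.06). The median gene differed from Parp1 by 0.33, and Parp1 itself varied by 0.19 around its mean. Among the 10 genes, Parg was nearest to Parp1 (0.09) and Parp4 farthest (0.45). For Parp4 the nearest were Inpp5k (0.08) and Hnrnpl (0.09), the median gene differed by 0.39, and the nearest of the 10 was Tnks2 (0.20). These measures share the libraries and their depth, and they describe likeness over 10 livers only.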

How the data were processed

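RNA-seq libraries of liver from 10 mice were grouped by their sample labels. By the submitters' processing notes the authors aligned reads with STAR 2.5.1a to GRCm38 and counted them with featureCounts 1.4.6-p5. They deposited read counts per Ensembl gene, CPM values (counts scaled to the library total) and RPKM values (CPM per kilobase of exon). Library preparation selected poly-A RNA, and whether counting used strand is not given in the sources used here. Symbols came from GENCODE for GRCm38 (40254 of 41388 genes). The labels describe 2 of the WT mice as refed and the study's text calls the comparison group fed, and the fasting time also differs between the sources. Labels are followed here.

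The deposited counts were filtered to genes that exceed 1 CPM in 1 library or more, without 4 rRNA genes. After TMM scaling, edgeR 4.0.16 (R 4.3.3) gave quasi-likelihood tests by its legacy default, with all 10 libraries in 1 fit, no covariate, and Benjamini-Hochberg adjustment over 13444 genes. Values of 1 gene were compared across libraries with two-sided exact permutation tests in SciPy 1.17.1, and levels were compared between genes in RPKM only. The script was tested on simulated data. Alternatives were voomWithQualityWeights (limma 3.58.1), edgeR's exact test, DESeq2 1.42.0, library size alone, RLE size factors, no filter, filterByExpr, the groups compared alone, a replicate block, removal of the trend with GC content, and each library left out in turn. Libraries total 30603080 to 43434139 reads, which sets counting error, and no replicate pair agreed within sampling noise.

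The genes, the pathway lists and the tests were chosen with earlier results of these data known. Named genes are all 10 members, Nampt, every pathway gene called and the one with the lowest p in each list and comparison, interferon and cell type markers past 10 times the median of the other libraries, and the nearest genes by pattern of each called member. Zc3hav1, Parp9, Parp12, Parp14 and Hpf1 were named after their values were seen. Promoter sequences are from RefSeq (GRCm38.p6) and covered 9 of the 10 genes.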

Additional observations from a re-analysis of the deposited data

How the results depend on the processing

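Over the alternatives, the members called between NAMPT LKO and WT Fasting livers stayed at 0. In WT Fasting vs WT Refed they were 5 with voomWithQualityWeights, 3 (Parg gained) with DESeq2, the groups compared alone or the GC trend removed, 1 without the filter, and 2 otherwise, as in the report. In NAMPT LKO Fasting vs WT Refed, 4 were called with voomWithQualityWeights, 3 with DESeq2 (Tnks2 gained), 1 without the filter and 2 otherwise. Leaving out each library gave 0 to 3, 0 to 0 and 0 to 4 members in WT Fasting vs WT Refed, NAMPT LKO Fasting vs WT Fasting and NAMPT LKO Fasting vs WT Refed, and 0 to 3, 0 to 0 and 0 to 6 pathway genes. With 1 WT Refed library left, that library is assumed to vary like the others. Pathway genes called in WT Fasting vs WT Refed were 6 with voomWithQualityWeights, 4 with DESeq2, 3 with the GC trend removed, and 1 each with the exact test, library size alone and the groups compared alone. In NAMPT LKO Fasting vs WT Refed, 10 were called with voomWithQualityWeights and 5 with library size alone or the GC trend removed. All genes called follow for some of these settings only. Member and pathway counts in the other settings have no share of all genes beside them, so they are not read as results about these genes. All genes called in WT Fasting vs WT Refed were 3331 (voomWithQualityWeights), 1646 (DESeq2), 1617 (groups compared alone) and 1456 (GC trend removed) against 946, ranging from 107 to 2235 over omissions, and those in NAMPT LKO Fasting vs WT Refed were 4281 (voomWithQualityWeights) against 1510, ranging from 226 to 2835. For NAMPT LKO against WT Fasting livers they were 24 with the exact test and with DESeq2, 17 without the filter, 3 with filterByExpr or the GC trend removed, and 2 with library size alone, with 1 to 2 over omissions. With library size alone the share of called genes that were higher was 25.7% (38.1% with TMM) in WT Fasting vs WT Refed and 26.1% (41.4%) in NAMPT LKO Fasting vs WT Refed. The cause was not tested.

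Replicate numbers do not pair mice by the labels, and same-numbered deviations correlated at 0.08, 0.16 and 0.10. With the replicate block on libraries 1 to 3, and in the same libraries without it, 0 genes and 0 members were called between fasted NAMPT LKO and WT livers, and Parp6 turned to 0.10 in both. Small differences turned sign elsewhere, all of them uncalled. Parp6 was 0.060 with voomWithQualityWeights and Tnks2 -0.015 with the GC trend removed in that comparison. In NAMPT LKO Fasting vs WT Refed, library size alone gave -0.033 for Parp6, -0.015 for Macrod1 and -0.079 for Cd38, and Cd38 was -0.023 with voomWithQualityWeights, -0.0079 without the filter and -0.044 with the GC trend removed. Over omissions the ranges that crossed 0 were -0.11 to 0.33 (Cd38) and -0.11 to 0.55 (Nampt) in WT Fasting vs WT Refed, -0.074 to 0.085 (Parp6), -0.021 to 0.12 (Tnks), -0.020 to 0.092 (Tnks2) and -0.32 to 0.11 (Cd38) between fasted NAMPT LKO and WT livers, and -0.021 to 0.15 (Parp6), -0.017 to 0.17 (Macrod1) and -0.047 to 0.11 (Cd38) in NAMPT LKO Fasting vs WT Refed.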
